A study of Drosophila melanogaster with 2 samples.

Results

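Chromatin immunoprecipitation followed by sequencing mapped the binding of vvl-eGFP in whole Drosophila melanogaster embryos, and 854 of the 8309 peaks in the conservative list lay in intergenic DNA close to, but not at, a gene start. These peaks, called near intergenic peaks here, have their summit in no gene body and more than 500 bp and at most 5000 bp from the nearest transcript start, which was 10.3% of all summits (95% Wilson interval 9.64 to 10.9). The choice used the position of the summit alone and no signal value. Embryos were aged 0 to 24 h and came from flies carrying an insertion that targets vvl, so that ventral veins lacking is made as a fusion with eGFP; the antibody was raised against GFP. There was 1 group, with 2 samples labelled as biological replicates from separate biosamples, and chromatin was sonicated to 200 to 800 bp. No sample without the fusion protein was analysed here, and an embryo collection of this span mixes all tissues and stages, so fewer bound cells and weaker binding per cell cannot be told apart. How deeply the samples were sequenced is unknown, since peak lists hold no read counts.

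The protein vvl belongs to the POU-domain family, whose members hold a POU-specific domain and a POU homeodomain joined by a linker, each contacting one part of an octamer-like DNA word. In flies vvl is known for its roles in the tracheal system, the midline glia, neurons and the veins of the wing. DNA between genes, within a few kb of a start, commonly holds enhancers, where transcription factors bind in combinations, while promoters themselves are bound by a different set of widely used factors.

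The octamer ATGCAAAT, sought on both strands, was found within 100 bp of the summit in 91 near intergenic peaks. The sequences below are the 8 with the highest signal, apart from 4 others above the weakest of them on an arm whose sequences are not printed, each read along the strand that holds the octamer and with the octamer in capitals, since it is the word that POU proteins are known to bind. Names are those of the gene with the nearest start, and all coordinates are Release 6 (dm6), with bases from the RefSeq copy of that assembly.
CG13898 (3L:802880-802939, minus strand): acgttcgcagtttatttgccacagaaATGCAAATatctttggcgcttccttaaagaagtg
lncRNA:CR45588 (3R:5058457-5058516, minus strand): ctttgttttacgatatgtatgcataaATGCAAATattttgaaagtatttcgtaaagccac
lncRNA:CR44583 (2L:11318024-11318083, plus strand): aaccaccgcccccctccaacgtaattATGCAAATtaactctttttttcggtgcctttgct
CG32573 (X:16650502-16650561, plus strand): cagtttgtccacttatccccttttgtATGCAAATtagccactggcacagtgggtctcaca
CG5445 (X:17305714-17305773, minus strand): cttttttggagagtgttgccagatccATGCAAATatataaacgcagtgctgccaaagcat
dac (2L:16486504-16486563, minus strand): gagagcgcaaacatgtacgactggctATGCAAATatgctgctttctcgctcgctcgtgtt
Cpr35B (2L:14422670-14422729, plus strand): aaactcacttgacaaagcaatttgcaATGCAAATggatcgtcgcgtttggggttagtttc
CG15879 (3L:2167031-2167090, minus strand): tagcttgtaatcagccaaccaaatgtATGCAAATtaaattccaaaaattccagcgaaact

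A further 4 near intergenic peaks held 2 octamers within 100 bp of the summit, and they are shown because the copies differ in spacing and orientation. Capitals again mark the octamer or its reverse complement, and all 4 are printed along the plus strand. In the peak nearest to lncRNA:CR43823 the copies overlap and point the same way, whereas in that nearest to lncRNA:CR43917 they point away from each other across 3 bases. The peak nearest to CG34451 shows an additional overlapping copy at the edge, which lay outside the 100 bp and was not counted.
lncRNA:CR44540 (3L:10253353-10253477, plus strand): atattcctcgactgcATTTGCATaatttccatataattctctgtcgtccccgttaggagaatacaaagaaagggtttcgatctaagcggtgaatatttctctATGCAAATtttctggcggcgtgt
CG34451 (3L:15695502-15695641, plus strand): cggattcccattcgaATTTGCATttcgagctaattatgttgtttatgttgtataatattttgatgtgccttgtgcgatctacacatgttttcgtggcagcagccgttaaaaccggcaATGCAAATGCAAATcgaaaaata
lncRNA:CR43823 (2L:3593417-3593460, plus strand): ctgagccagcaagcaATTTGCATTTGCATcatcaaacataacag
lncRNA:CR43917 (3L:3880744-3880792, plus strand): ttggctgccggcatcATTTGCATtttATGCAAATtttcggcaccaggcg

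None of the 15 near intergenic peaks with the highest signal held the octamer, against 10.7% of all near intergenic peaks. In the strongest of 4 equal parts by signal the share was 9.35%, so 15 peaks are too few to show a lower share. The peak nearest to jp, among these 15, held the POU word ATGCATAT. For contrast, the 101 bases centred on the summit are given for the 4 strongest, on arms whose sequences are printed, that have none of the 4 POU words tested, along the plus strand. The GAGA element in the peak nearest to nub is in capitals.
nub (2L:12587020-12587120, plus strand): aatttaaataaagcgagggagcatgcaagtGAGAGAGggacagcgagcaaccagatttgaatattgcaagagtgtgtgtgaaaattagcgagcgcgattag
lncRNA:CR45643 (3R:16222442-16222542, plus strand): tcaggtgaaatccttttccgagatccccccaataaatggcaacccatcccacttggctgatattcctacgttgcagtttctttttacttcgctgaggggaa
CG31668 (2L:2202359-2202459, plus strand): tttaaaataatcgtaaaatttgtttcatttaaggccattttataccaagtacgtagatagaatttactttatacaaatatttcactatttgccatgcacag
sp3 (3R:21520317-21520417, plus strand): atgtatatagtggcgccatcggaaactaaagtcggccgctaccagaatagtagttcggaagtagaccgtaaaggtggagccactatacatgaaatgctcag

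The octamer was more frequent in near intergenic peaks than in both kinds of peak-free DNA and than in promoter peaks. It lay within 100 bp of 91 of 854 near intergenic summits, 10.7% (Wilson 8.76 to 12.9), against 6.68% of all 8309 peaks. In windows of the same 201 bp centred 1000 bp to each side of the summits and free of peaks, 58 of 1528 held it, 3.80% (2.95 to 4.88). The odds ratio was 3.02 (2.15 to 4.25), with an adjusted exact p of 2.67e-09 by Fisher's exact test, 2-sided, with Benjamini-Hochberg adjustment over 18 words. Of 76095 peak-free windows tiling the same intergenic territory, 3433 held it, 4.51%, giving an odds ratio of 2.52 (2.03 to 3.15) and an adjusted exact p of 3.1e-12. GC content differed, with a median of 38.3% in near intergenic windows against 41.3% in the peak-free windows, and with windows compared within strata of GC content the odds ratio was 2.57. The flanking windows, with a median of 42.3%, were not compared within such strata. Promoter peaks, whose summit lies within 500 bp of a start, held the octamer in 151 of 3813 cases, 3.96% (odds ratio 2.89, 2.20 to 3.79, adjusted exact p = 1.89e-12).

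Against the other peaks away from starts the share of octamers was not shown to differ. Intronic peaks at the same distances from a start, called near intronic peaks here, held it in 159 of 1934 cases, 8.22%, an odds ratio of 1.33 (1.02 to 1.75) with an adjusted exact p of 0.306 (unadjusted 0.0439) by Fisher's exact test. Far intergenic peaks, over 5000 bp from a start, held it in 36 of 388 cases, 9.28%, an odds ratio of 1.17 (0.777 to 1.75) and an adjusted exact p of 0.991. The intervals allow a share that is somewhat higher in near intergenic peaks, or, for far intergenic peaks, somewhat lower.

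Related words followed the octamer. The variant ATGCTAAT was near 36 summits, 4.22%, against 1.37% of the flanking windows (odds ratio 3.16, adjusted exact p = 0.000191) and 1.21% of promoter peaks (odds ratio 3.60, adjusted exact p = 2.15e-07). A second variant, ATGCATAT, was near 29 summits, 3.40%, against 1.51% of the flanking windows (odds ratio 2.30, adjusted exact p = 0.0147), and this last call was lost with windows of 50 bp or 200 bp to each side, with the peaks of replicate 2 alone and with protein-coding genes alone. Together the 3 words of 8 letters marked 144 near intergenic peaks, 16.9%, against 6.54% of flanking windows, 7.33% of peak-free windows, 6.79% of promoter peaks, 14.1% of near intronic peaks and 16.5% of far intergenic peaks. The shorter core TGCAAAT, which lies inside the octamer, passed the test against flanking windows (14.2% against 7.98%), though not with 200 bp to each side, but copies outside an octamer were at 4.10% in near intergenic peaks against 4.52% in flanking windows and passed in none of the 5 comparisons. The octamer reversed (TAAACGTA) and the octamer shuffled (AACATGTA), used as controls of the same composition, did not pass in any comparison, with 1.05% and 1.17% in near intergenic peaks against 0.785% and 0.654% in flanking windows. Against peak-free windows their odds ratios were 2.06 and 2.01, with an adjusted exact p of 0.0942 for both, and there AACATGTA passed with 50 bp to each side (odds ratio 2.92), with the list of either replicate alone and with the 50% of peaks of the highest signal, and TAAACGTA with protein-coding genes alone (2.34).

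Promoter elements, and an E-box, were rarer than in promoter peaks. The DNA replication-related element TATCGATA, a word of housekeeping promoters bound by DREF, lay near 7 near intergenic summits, 0.820%, against 296 of 3813 promoter peaks, 7.76% (odds ratio 0.0982, 0.0462 to 0.209, adjusted exact p = 2.02e-17). The site GGTCACAC of M1BP, another factor of such promoters, lay near 5 summits, 0.585%, against 231 promoter peaks, 6.06% (odds ratio 0.0913, adjusted exact p = 3.43e-14). The E-box CAGCTG, a type of site read by basic helix-loop-helix factors, was at 6.91% against 13.7% in promoter peaks (odds ratio 0.467, adjusted exact p = 5.09e-08). Peak-free windows held these 3 words in 0.386%, 0.250% and 7.59% of cases, which gave odds ratios of 2.13, 2.35 and 0.903. In none of these did near intergenic peaks differ from peak-free windows beyond the threshold, with adjusted exact p of 0.0942, 0.11 and 0.57 by Fisher's exact test. GGTCACAC, however, passed there as more frequent in near intergenic peaks with 50 bp to each side (odds ratio 4.88, adjusted exact p = 0.0156) and with the broader list (2.97, adjusted exact p = 0.014).

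Other factors' words divided differently. The GAGA element GAGAGAG, read by Trl and other proteins that open chromatin, was at 5.27% of near intergenic summits against 2.09% of peak-free windows (odds ratio 2.60, adjusted exact p = 3.22e-07) and 6.66% of promoter peaks (odds ratio 0.779, 0.563 to 1.08, adjusted exact p = 0.172). It passed as rarer than in promoter peaks with 200 bp to each side (odds ratio 0.694), with the broader list (0.663) and with the list of replicate 1 alone (0.597). Against the flanking windows it passed with 3.01% (odds ratio 1.79, adjusted exact p = 0.0262) but failed under 5 of 8 alternative settings. The Sox word ACAATG was at 12.5% against 8.58% of promoter peaks (adjusted exact p = 0.00136), the Zelda word CAGGTAG at 1.41% against 0.498% (adjusted exact p = 0.0158), and the E-box CATATG, preferred by Twist, at 7.61% against 5.51% (adjusted exact p = 0.0433). CAGGTAG no longer passed with windows of 50 bp to each side, the broader list, the list of replicate 1 alone or protein-coding genes alone, and CATATG no longer passed with 50 bp or with the list of either replicate alone. ACAATG did not pass in the 50% of peaks with the highest signal. The Grainyhead palindrome AACCGGTT lay near 6 summits, 0.703%, against 0.160% of peak-free windows (odds ratio 4.41, adjusted exact p = 0.00952), a call that failed under 5 alternative settings, among them the 50% of peaks with the highest signal, where the odds ratio was 0.720.

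Over the 18 words, near intergenic peaks were higher for 5 words (27.8%) and lower for 0 against flanking windows, higher for 6 (33.3%) and lower for 0 against peak-free windows, and higher for 7 (38.9%) and lower for 3 (16.7%) against promoter peaks. Against near intronic and far intergenic peaks 0 words passed in either direction by Fisher's exact test, with unadjusted exact p under 0.05 for TATAAAAG, the TATA box, in both (adjusted exact p = 0.306 and 0.345), for the octamer against near intronic peaks, and for CAGCTG against far intergenic peaks (6.91% against 3.87%, adjusted exact p = 0.345). The words that passed in no comparison, beside the controls and the TATA box, were the homeodomain core TAATTA, the GATA site AGATAAG and the word TACGTG read by basic helix-loop-helix PAS factors, though with protein-coding genes alone AGATAAG passed as higher than in peak-free windows (odds ratio 1.67) and promoter peaks (1.77). A match of a word is a description of the letters and does not show that its factor was bound. Windows of near intergenic peaks were covered by repeats to more than 50%, by the soft masking of the assembly, in 3.04% of cases, against 3.14% of flanking windows and 7.64% of peak-free windows.

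**Figure D1:**
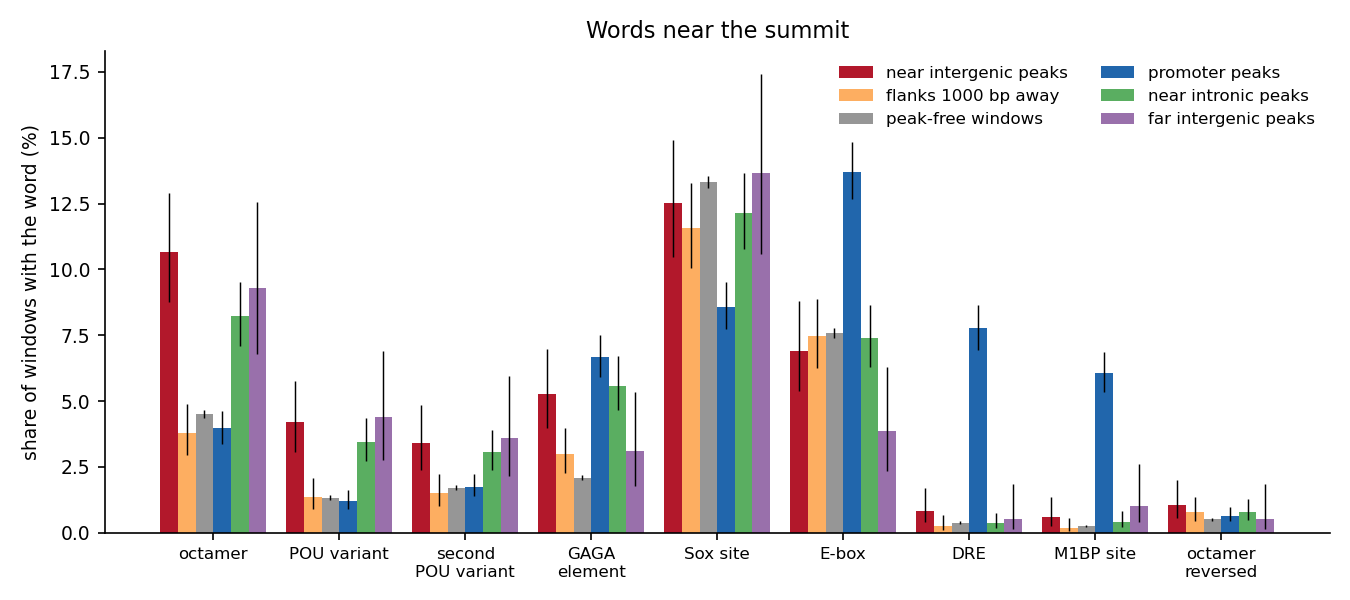
Share of 201 bp windows (y axis, %) that hold each of 9 words, by kind of window. Bars start at 0 and lines are 95% Wilson intervals over windows, which are not replicates. The octamer was at 10.7% in near intergenic peaks, above flanks, peak-free windows and promoter peaks, while the promoter words DRE and M1BP site were at 7.76% and 6.06% in promoter peaks.

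The octamer sat close to the summit. Its density in near intergenic peaks was 0.562 and 0.890 occurrences per kb in the 50 bp to each side of the summit, against 0.220 and 0.257 per kb at promoter peaks, 0.600 and 0.641 per kb at near intronic peaks and 0.464 and 0.722 per kb at far intergenic peaks. More than 100 bp from the summit it was between 0.117 and 0.281 per kb in near intergenic peaks and between 0.0839 and 0.173 per kb at promoter peaks. The median distance of the nearest octamer from the summit was 33 bp, and 60 of the 91 peaks had one within 50 bp. Of the 95 octamers, 53 lay on the strand of the nearest gene and 42 on the other.

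Comparison of all 2080 strand-merged 6-mers brought out a word that the fixed list did not hold. Against flanking windows 70 6-mers were higher (3.37%) and 98 lower (4.71%) in near intergenic peaks, with adjusted p under 0.05 by Fisher's exact test and an odds ratio past 1.5. Those with the lowest adjusted exact p were CAGTGC, in 20.1% of near intergenic against 8.38% of flanking windows, then AGTGTA with 18% against 7% and ACACTG with 16.4% against 6.61%. Read on the other strand, ACACTG shares a run of 5 letters with AGTGTA. The lowest among those that were rarer were CCAGGA with 1.64% against 7.59%, then CAGGAC with 1.87% against 7.07% and GGAGGA with 3.04% against 8.70%. GC content was not held equal in the comparisons of 6-mers. Its median was 42.3% in flanking windows against 38.3% in near intergenic windows. Flanking windows had only to be free of peaks, so some can lie in genes or near starts. Against peak-free windows 66 were higher (3.17%) and 107 lower (5.14%), led by CACTGA, with 19.3% against 8.16%. Against promoter peaks 72 were higher (3.46%) and 97 lower (4.66%). The higher ones were led by GCATAA (23.0% against 11.3%), which lies in none of the 4 POU words, and TATGCA (24.7% against 13.9%). Read on the other strand, TATGCA is part of ATGCATAT. ATGCAA, a part of the octamer, was also among the higher (24.9% against 17.7%). The lowest adjusted exact p among the rarer belonged to CGATAG (3.63% against 17.3%) and TATCGA (6.91% against 21.9%), which overlap the DRE.

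Near intronic peaks differed in 1 of 2080 6-mers (0.0481%), AAACAG, which was at 13.0% in near intergenic against 19.7% in near intronic peaks (adjusted exact p = 0.0321 by Fisher's exact test, with 160 6-mers at an unadjusted exact p under 0.05). Far intergenic peaks differed in 0 of 2080 by the same test, with 104 at an unadjusted exact p under 0.05. With 388 far intergenic peaks this last comparison has the fewest windows of the 5.

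Chaining the leading 6-mers AGTGTA (read on the other strand), ACACTG and CACTGA gave the 8-letter word TACACTGA, chosen after these values were seen and so given without a test. CAGTGC, which had the lowest adjusted p against flanking windows by Fisher's exact test, is not part of it. It lay within 100 bp of 36 near intergenic summits, 4.22% (Wilson 3.06 to 5.78), against 0.851% of flanking windows, 0.553% of peak-free windows and 1.44% of promoter peaks. In peaks that had no part in choosing it, the share was 3.46% for near intronic peaks (2.74 to 4.38) and 5.15% for far intergenic peaks (3.36 to 7.83), so other peaks away from starts held it as well. In near intergenic peaks its highest density was at 50 to 100 bp to 1 side of the summit, 0.398 per kb (17 occurrences). At the same distance on the other side it was 0.164 per kb (7 occurrences). Within 50 bp it was 0.234 and 0.0937 per kb (10 and 4 occurrences), so in near intergenic peaks the highest value rests on 1 bin. Near intronic peaks had 0.269 and 0.310 per kb at 50 to 100 bp (26 and 30 occurrences). Within 50 bp they had 0.0827 per kb on each side (8 occurrences each). For far intergenic peaks the values were 0.258 and 0.464 per kb (5 and 9), against 0.103 and 0.258 within 50 bp (2 and 5). None of the 36 near intergenic peaks with TACACTGA also held the octamer. A count of 0 in 36, taken as at most 3 counts, allows a share of up to 8.33%. Their median signal was 172.7, against 142.1 over all near intergenic peaks, and their ranks lay between 182 and 7908.

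The 4 strongest of these peaks on arms whose sequences are printed are shown along the strand that holds the word, which is in capitals, because its flanks differ while its letters do not.
slp2 (2L:3832559-3832618, minus strand): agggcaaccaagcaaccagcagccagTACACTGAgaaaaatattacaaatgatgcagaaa
lncRNA:CR42794 (X:5696412-5696471, plus strand): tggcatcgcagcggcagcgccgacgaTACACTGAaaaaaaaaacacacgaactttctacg
lncRNA:CR45303 (2L:14502676-14502735, plus strand): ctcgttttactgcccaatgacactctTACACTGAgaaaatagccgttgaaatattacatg
lncRNA:CR45355 (2L:16535847-16535906, plus strand): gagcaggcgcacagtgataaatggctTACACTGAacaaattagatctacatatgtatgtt

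**Figure D2:**
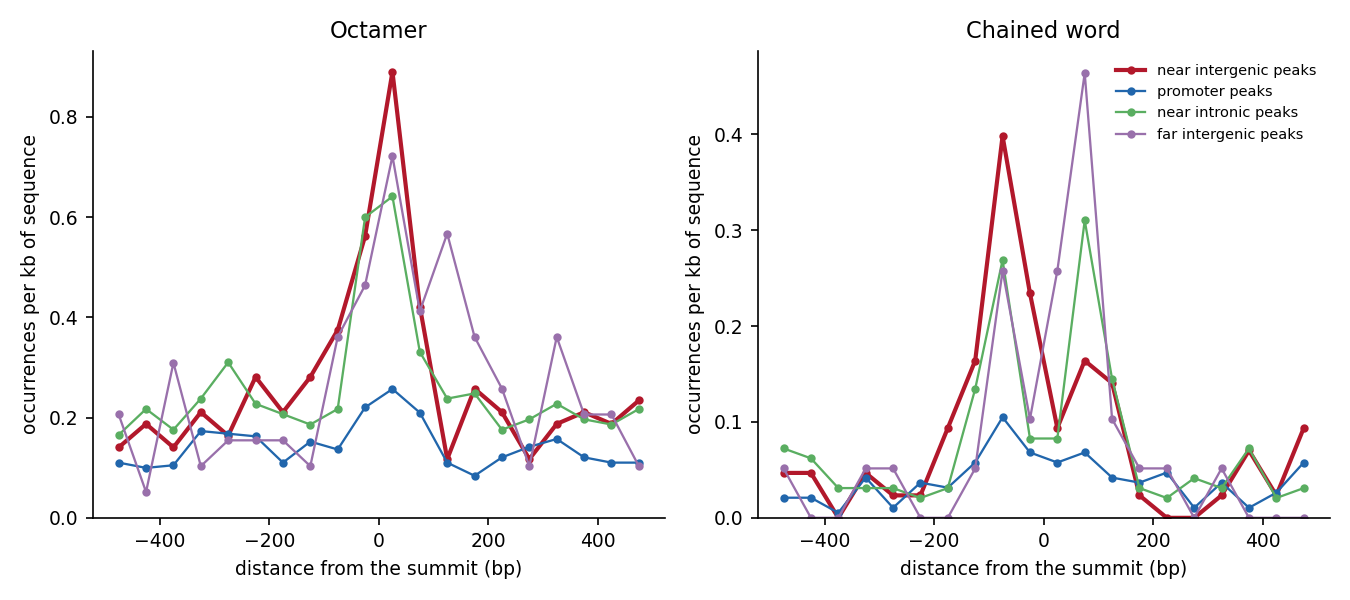
Occurrences per kb (y axis) in bins of 50 bp by distance from the summit in bp (x axis, along the plus strand) for the octamer at left and TACACTGA, the chained word, at right. Lines join the bins of each location class and have no error bars. The octamer of near intergenic peaks reached 0.890 per kb beside the summit, and the chained word 0.398 per kb at 50 to 100 bp to 1 side of it (17 occurrences).

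Signals of near intergenic peaks had nearly the same median as those of the whole list. The authors' signal per peak had a median of 142.1 (quartiles 104.9 and 216.4, lowest 2.71 and highest 2249) against 141.3 over all peaks. In the top 25% of the list by signal lay 209 of the 854 near intergenic peaks, 24.5% (25% of all peaks), against 27.5% of promoter peaks, a difference of -3.06 points (-6.18 to 0.238, adjusted exact p = 0.22 by Fisher's exact test over 3 comparisons). Near intronic peaks were at 24.6% and far intergenic peaks at 21.6%, with adjusted exact p of 1 and 0.469. The difference from promoter peaks passed with the broader list (-4.72 points, adjusted exact p = 0.0029) and with the list of replicate 2 ranked on its own (-6.84 points, adjusted exact p = 0.00039).

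The strongest near intergenic peak lay 555 bp upstream of nub, at 2L:12586876-12587255. nub itself encodes a POU-domain factor of wing and nerve cord development. Its signal was 2249, rank 12 of the list, with 1294 in replicate 1 and 961.1 in replicate 2. Second came the peak 903 bp upstream of lncRNA:CR45643 with a signal of 1878, with 890.9 in replicate 1 and 941.1 in replicate 2, and next that near CG31668 with 1513, with 1010 in replicate 1 and 496.9 in replicate 2. CycB, the mitotic cyclin B, had a signal of 1219 at 3340 bp, and sp3 one of 1058 at 561 bp. The other 10 strongest were nearest to DNAlig3 (a DNA ligase), foxo (a forkhead factor of insulin signalling), CG10479, jp, RasGAP1 (which turns off Ras), slp2 (a forkhead factor of the segmentation cascade), lncRNA:CR42794, CG17896, CG43131 and dikar, with signals from 1003 down to 691.0. All 15 were in both replicate lists, and 13 lay upstream of the nearest start.

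Peaks with an octamer had middling signals. The strongest, near CG13898, ranked 418 with a signal of 518.7, with 229.7 in replicate 1 and 287.6 in replicate 2. Next were that near lncRNA:CR45588, with 468.4, 398.5 in replicate 1 and 71.0 in replicate 2, and that near lncRNA:CR44583, with 400.1, 260.2 in replicate 1 and 143.4 in replicate 2. The replicates thus weighted these peaks unequally. Over the 91 peaks the median was 147.0 (quartiles 106.7 and 192.1), against 141.4 (104.7 and 218.3) over the 763 without it. With near intergenic peaks cut by signal into 4 equal parts, from the highest to the lowest, the octamer share was 9.35%, 12.7%, 10.3% and 10.3%, with intervals that overlap throughout. All octamer peaks stronger than the one near dac were nearest to noncoding RNA genes or to genes named by CG numbers. The peak near dac, a regulator of eye and leg fate, had a signal of 281.8 (rank 1320). That near salr, a spalt zinc-finger factor, had 251.6 (rank 1619) and was not in the list of replicate 2.

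Most near intergenic peaks were also in the lists called from each replicate on its own. The conservative list rests on the alignments of both replicates, so this overlap is no independent check. The list of replicate 1 held 707 of 854, 82.8% (80.1 to 85.2, background 81.5%), against 81.8% of promoter peaks, 80.6% of near intronic and 83.2% of far intergenic peaks. That of replicate 2 held 610, 71.4% (68.3 to 74.4, background 73.4%), and both lists held 525, 61.5% (background 62.4%). Against promoter peaks, at 78.2%, the share in the list of replicate 2 was lower by 6.78 points (interval of the difference -10.2 to -3.56, adjusted exact p = 0.000205 by Fisher's exact test over 6 comparisons). Among the 50% of the list with the highest signal this difference was -1.80 points (adjusted exact p = 0.265). Far intergenic peaks were at 64.7%, a difference of 6.74 points (1.19 to 12.4, adjusted exact p = 0.0602), and near intronic peaks at 71.1%. The other 5 of the 6 comparisons did not pass.

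In neither list were 62 near intergenic peaks, whose median signal was 95.1, against 184.6 for those in both. Matched to the nearest summit within 100 bp in each ranked list, near intergenic peaks had a median signal of 89.8 in replicate 1 (809 peaks) and 57.7 in replicate 2 (780 peaks). Of the 762 matched in both, 635 had the higher signal in replicate 1, and the median ratio of replicate 1 to replicate 2 was 1.49, against 1.30 for promoter peaks, 1.44 for near intronic peaks and 1.60 for far intergenic peaks. What the signal is relative to is not given in the sources used here, so the ratio compares values and not amounts of binding. Across these 762 peaks, which share their embryos and libraries, Spearman's rho between the replicates was 0.606, given as a description.

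**Figure D3:**
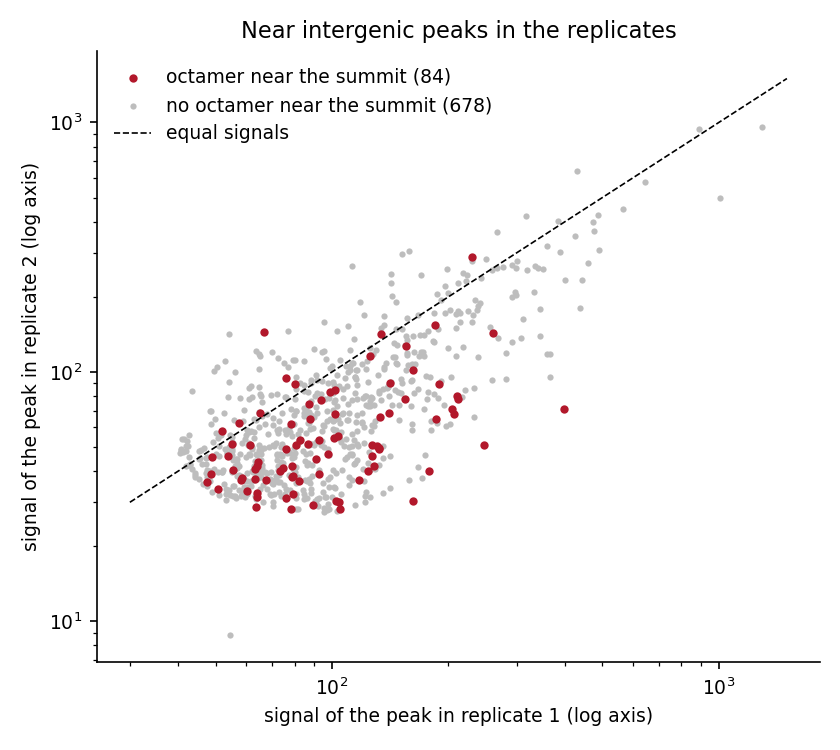
Signal of each near intergenic peak in replicate 2 (y axis, log scale) against replicate 1 (x axis, log scale), for the 762 peaks matched in both. Red points are the 84 with an octamer near the summit and grey points the 678 without, the dashed line marks equal signals, and 635 points lie below it.

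**Figure D4:**
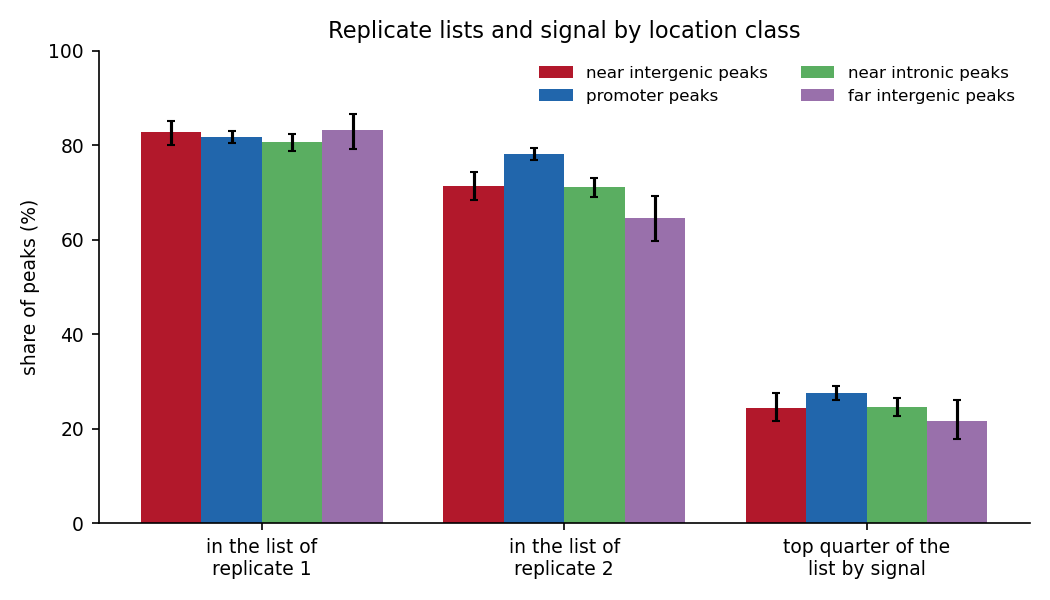
Share of peaks (y axis, %) found in the list of each replicate and in the top 25% of the conservative list by signal, for 4 location classes, with 95% Wilson intervals over peaks. Near intergenic peaks were at 71.4% in the list of replicate 2, against 78.2% of promoter peaks.

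Near intergenic peaks thinned out with distance from the start. The territory the rule allows, intergenic DNA more than 500 bp and up to 5000 bp from a start, made up 16.4 Mb, or 12.2% of the 6 arms, and held 52.2 such peaks per Mb (exact Poisson interval 48.7 to 55.8, counting error only). Density was 75 per Mb at 500 to 1000 bp (65.3 to 85.9), 56.5 at 1000 to 2000 bp, 45.0 at 2000 to 3000 bp, 43.0 at 3000 to 4000 bp and 39.1 at 4000 to 5000 bp (31.6 to 47.9). The intervals of the nearest and the farthest bin do not overlap, while those of the last 3 bins do. The median distance was 1774 bp. Octamer shares in the same bins were 8.49%, 9.69%, 12.8%, 11.9% and 12.8%, with overlapping intervals.

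Upstream of the nearest start lay 595 peaks, 56.7 per Mb (52.2 to 61.4), against 259 on the downstream side, past the end of a short gene, 44.1 per Mb (38.9 to 49.9). Gaps between divergent genes held 60.2 per Mb (53.1 to 67.9), those between tandem genes 51.3 and those between convergent genes 44.8 (37.9 to 52.5). The nearest start belonged to a protein-coding gene for 563 peaks (51.1 per Mb), a noncoding RNA gene for 265 (57.3 per Mb), a tRNA gene for 21 (88.4 per Mb, 54.7 to 135) and another kind for 5. Among the arms 3L stood highest with 255 peaks, 73.0 per Mb (64.3 to 82.5), and X lowest of the larger arms with 91, 38.1 per Mb (30.7 to 46.8). On 3R the density was 45.2 per Mb; other peaks there that passed the threshold of the ranked list were not analysed here, and how many of them lie in this territory was not examined.

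**Figure D5:**
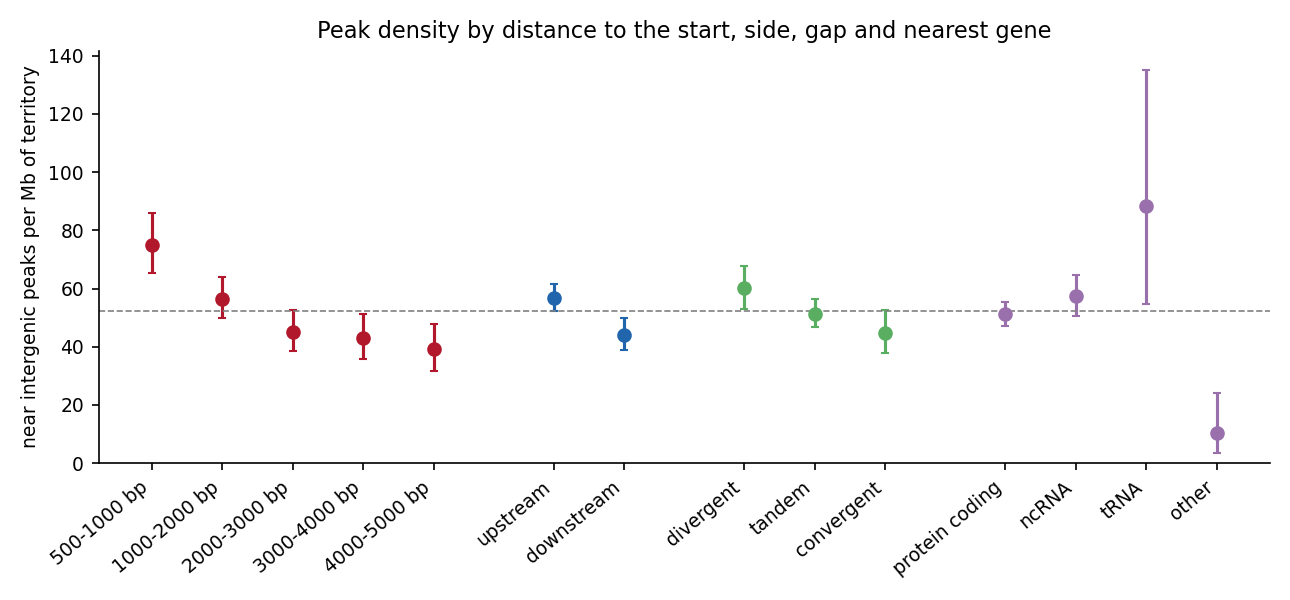
Near intergenic peaks per Mb of the allowed territory (y axis, from 0) by distance from the nearest start, by side of it, by type of gap and by kind of nearest gene. Points are densities, bars exact 95% Poisson intervals that cover counting error only, and the dashed line the density over all territory, 52.2 per Mb; density fell with distance, to 39.1 per Mb at 4000 to 5000 bp.

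Signals of the peaks nearest to the limits of the rule are given as a description. The nearest inside the lower limit were 502 bp from lncRNA:CR44929, with a signal of 162.4, and 504 bp from lncRNA:CR45243, with 144.7. Just outside were peaks 494 bp from dyl, with 122.9, and 495 bp from Syn, with 77.7. At the upper limit, the peaks 4975 bp from lncRNA:CR44443 and 4995 bp from CG43245 were inside, with signals of 122.2 and 76.0. Outside were those 5009 bp from a noncoding transcript, with 398.3, and 5034 bp from lncRNA:CR42755, with 138.6, both higher than the pair inside.

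Several stretches held groups of near intergenic peaks. The 854 peaks fell into 616 of 12189 gaps between gene bodies, 458 of them with 1 peak and 49 with 3 or more, and 396 peaks (46.4%) shared their gap with another. A gap of 33.0 kb between tRNA:Ile-TAT-1-2 and CG13898 (3L:770463-803426) held 6, with signals from 96.6 to 518.7 and 2 octamer peaks. A gap of 14 kb between Ids and lncRNA:CR45737 (3L:3380084-3394087) held 6 with signals from 89.7 to 429.0, all 6 in the list of each replicate and none with an octamer. Between robo2, a receptor of axon guidance, and CG43401 lay 6 in 8.02 kb, with signals from 60.6 to 293.3. The gaps between lncRNA:CR45937 and lncRNA:CR45936 and between lncRNA:CR44513 and lncRNA:CR42719 held 5 each. Within 200 bp of another conservative summit lay 24 near intergenic summits, which therefore share part of their sequence window.

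By gene, 666 genes had a near intergenic peak nearest to their start. lncRNA:CR45737 had 7, with signals from 89.7 to 400.0, all in the list of each replicate. The 3 genes with 5 were lncRNA:CR45759, CG13898 and lncRNA:CR45937. Those with 4 that had the strongest peaks were foxo, lncRNA:CR43883, lncRNA:CR45251, CG43401, lncRNA:CR44730 and lncRNA:CR44761. Of these 10 genes 6 lie on 3L and 7 are noncoding. Counted by peak and not by gene, 29.9% of near intergenic peaks lay on 3L and 31.0% were nearest to a noncoding RNA gene.

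At the vvl locus itself (3L:6790158-6794941), 5 of the 9 conservative summits within 10 kb were near intergenic, and lncRNA:CR45759, which neighbours vvl, was the gene with the nearest start for each. Their signals were 630.7, 246.5, 187.6, 148.4 and 120.6. The strongest, at 3L:6787467-6787889 between the divergent lncRNA:CR45759 and vvl, ranked 279 with 438.4 in replicate 1 and 180.6 in replicate 2. Of the others 2 held the octamer, with ranks 3882 and 5171. All 5 were in both replicate lists, counted by an overlap of 1 bp or more. The peak with a signal of 187.6, however, could not be matched to replicate 1 under the 100 bp limit on summits. It overlaps the neighbouring peak with a signal of 148.4. Whether its overlap in the list of replicate 1 is with a separate peak was not tested. The labels say that the insertion targets vvl, and whether the tagged copy stands at this locus is not given in the sources used here.

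Genes of lists on development and signalling had near intergenic peaks more often than protein-coding genes at large, but they also had more of the allowed territory around them. Of 263 listed genes 33 had one nearest to their start, 12.5%, against 460 of 13945 protein-coding genes (3.3%). Nearest to the listed genes lay 0.529 Mb of the territory, against 11.0 Mb for all protein-coding genes. Per Mb of it there were 73.8 such peaks (52.5 to 101), against 51.1 (47.0 to 55.5). The value was thus still higher for listed genes, with intervals that overlap, and this difference was not tested. How far territory accounts for the higher share of genes was not tested either. Median signals were 141.4 for the peaks of listed genes and 142.1 for those of all protein-coding genes. Among the 20 lists taken singly, 3 had intervals wholly above that of all protein-coding genes: the tracheal list with 223 per Mb (102 to 423, 9 peaks), the wing vein and Iroquois list with 194 (71.0 to 421, 6 peaks) and the Hedgehog list with 209 (57.0 to 536, 4 peaks). These intervals are not adjusted for the number of lists, and some genes stand in more than one list. The lists were also chosen with earlier results of these data known.

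In the tracheal list, 7 of 22 genes had a near intergenic peak, 9 peaks in all with a median signal of 117.2. Of the 9 peaks 2 held the octamer, against 64 of 563 for all protein-coding genes. All lists together also had 2 octamer peaks, of 39. The spalt gene salm had a signal of 427.0 (151.8 in replicate 1 and 298.2 in replicate 2), its paralogue salr 251.6 (185.5 and 64.6), and kni, a nuclear-receptor family factor that acts in the trachea and the wing veins, 238.9 (151.7 and 90.2). The wing vein and Iroquois list, with 5 of 13, shares these genes; with the list of replicate 2 alone it had 2 of 13. The list of replicate 1 held 6 of the 9 tracheal peaks, while 3 appeared in that of replicate 2. POU-domain genes had 2 of 5, nub and its neighbour pdm2 (signal 263.7), and both of these peaks held the GAGA element but no octamer.

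Signalling lists were uneven. The EGF receptor list had 2 of 15, aop, an ETS-domain repressor of the pathway (504.2), and ed, a cell adhesion molecule that dampens it (428.0). The Hedgehog list had 3 of 11, en (176.8), inv (124.9) and the receptor ptc (113.3), and the Wnt and Notch lists 1 each, Wnt4 (175.3) and mib1 (141.4). With the list of replicate 1 alone the Wnt list had 4 and the Dpp list 1, and with that of replicate 2 alone the Wnt list had 2, the Hedgehog list 2, the EGF receptor list 3 and the Notch list 0. The FGF pathway, Dpp pathway, Hox and basic helix-loop-helix PAS lists had 0 of 8, 0 of 13, 0 of 10 and 0 of 9 genes. The territory nearest to the genes of each of these 4 lists was at most 0.0177 Mb.

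Among tissue and factor lists, muscle genes had 4 of 18, with bap, a homeobox gene of visceral mesoderm (427.8), how, an RNA-binding protein of muscle (296.5), and the actin gene Act87E (232.5). Segmentation genes had 3 of 15, slp2 (781.1), en (176.8) and slp1 (138.4). Homeobox factor genes had 5 of 35, among them zfh1 (439.2), zfh2 (257.2) and Dll (156.6), and 8 with the list of replicate 1 alone. Midline and glial genes had 2 of 19, robo2 (263.6) and comm (134.5), both of axon guidance at the midline. Epidermis and cuticle genes had 2 of 17, verm (117.2) and Ddc (96.7). Proneural, neuronal, ecdysteroid synthesis and ecdysone response lists had 1 gene each, esg (104.5), VGlut (89.6), shd (88.8) and Eip78C (109.9), all below the median of near intergenic peaks. With the list of replicate 2 alone each of these 4 lists had 0, as the ecdysone response list also had with that of replicate 1.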

How the data were processed

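ChIP-seq of vvl-eGFP with an antibody against GFP was done in 2 replicate samples of 1 group. The authors deposited peak lists in dm6 coordinates, per the file names and labels: ranked lists and lists thresholded by the irreproducible discovery rate (IDR). Per the text files accompanying them, the lists of the series rest on the alignments of replicates 1 and 2 together, and those of a replicate on that replicate alone. The deposited lists give each peak a signal, a score (830 or more in the conservative list) and a summit, and the ranked ones the −log10 IDR (2 or more in thresholded peaks). For the aligner, the peak caller and the scale of the signal, versions and names were not given in the sources used here. Of 8493 ranked peaks at an IDR of 0.01 or less, 184, 115 of them on 3R, are outside the conservative list and were not analysed here. Depth is unknown, as the other deposited columns, positions and summit offsets, hold no counts.

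Here, the 8309 summits were classed on 6 arms with Ensembl release 115 without transposable elements, and word windows were read from the RefSeq Release 6 assembly. A word counted where it lay on either strand wholly within 100 bp of a summit. TGCAAAT overlaps the octamer, and CATATG can overlap ATGCATAT. Fisher's exact test was 2-sided with Benjamini-Hochberg adjustment over 6 comparisons of replicate lists, 3 of the top 25% by signal, 18 words or 2080 6-mers (threshold 0.05, for 6-mers also an odds ratio past 1.5). A peak was in a replicate list where it overlapped one by 1 bp or more. Shares carry Wilson intervals, densities exact Poisson intervals and odds ratios normal ones, all at 95%; they cover the counting of peaks alone, not the spread between embryos. The tests were tried on simulated sequences with planted words. Calculations used Python 3.11.15, NumPy 2.4.6, pandas 2.3.3 and SciPy 1.17.1.

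The text names the 15 strongest near intergenic peaks, the 10 genes nearest to most of them, up to 3 genes per list by strongest peak, the 5 fullest gaps, the words past the threshold and the leading 6-mers. Sequences were taken in order of signal, and none from 2R is printed. The peak class, the 18 words and the 20 gene lists, of which 263 of 275 symbols matched, were chosen with earlier results of these data known. Comparisons of 6-mers with peak-free windows, promoter peaks and far intergenic peaks, TGCAAAT outside the octamer, the joint POU words and TACACTGA were added after the data were seen, as were peaks named just outside the limits and at vvl. The other alternatives varied the peak list, window, overlap, gene set and distance limits.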

Additional observations from a re-analysis of the deposited data

How the results depend on the processing

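Of the alternative values of the main results, 147 stayed on their side of the threshold or within 1.5 times, 19 moved further, 11 changed sign, 3 newly passed and 1 no longer passed. Of those of single words and gene lists, 156 stayed, 28 no longer passed, 26 moved further and 4 changed sign. The cause of these changes was not tested. The octamer was higher and past the threshold under all 8 alternatives against flanking windows (odds ratio 1.67 to 4.64), all 8 against peak-free windows (1.63 to 3.35) and all 7 against promoter peaks. Against far intergenic peaks, where it did not pass, the odds ratio turned to 0.922 with 200 bp to each side, 0.960 with the broader list and 0.897 with replicate 1 alone, and leaving out either replicate gave 0.897 to 1.42.

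The share of near intergenic peaks was 7.73% with a lower limit of 1000 bp and 7.63% with an upper limit of 3000 bp, by construction, and 10.5% to 10.6% in the lists of single replicates. Shares in the replicate lists changed sign in comparisons that passed in neither setting. For replicate 1 the difference was -0.706 points from promoter peaks with protein-coding genes alone and -0.509 with the 50% of highest signal, -1.44 from near intronic peaks with that 50%, and 0.901 from far intergenic peaks with 50% of the peak covered. For replicate 2 it was -1.24 from near intronic peaks with protein-coding genes alone and -0.426 with the 50% of highest signal. The called difference of replicate 2 from promoter peaks was -1.80 with that 50% and did not pass, and the one from far intergenic peaks passed with 50% of the peak covered (8.43). For the top 25% by signal the difference from promoter peaks passed with the broader list (-4.72), and with single replicate lists was -6.84 to -3.69. That from near intronic peaks turned to 0.821 with the broader list and 0.108 with protein-coding genes alone.

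Counts of words higher than in flanking windows were 3 with 50 bp or 200 bp to each side and 3 to 5 with single replicate lists. Against promoter peaks they were 4 with 50 bp and 4 to 5 with single replicate lists, and 1 word was lower than in near intronic peaks with the 50% of highest signal. 6-mers higher than in flanking windows numbered 45 with 200 bp, and those lower 61 with 50 bp and 53 with 200 bp. Against near intronic peaks 2 were higher with the broader list, and 0, 2 and 6 lower with 50 bp, 200 bp and the broader list. Lower 6-mers numbered 61 and 54 against peak-free windows with 50 bp and 200 bp, and 60 against promoter peaks with 50 bp. TGCAAAT outside the octamer turned to odds ratios of 0.904 against flanking windows, 0.703 against peak-free windows and 0.927 against promoter peaks, and AACCGGTT to 0.720 against peak-free windows with the 50% of highest signal. Listed genes with a peak nearest numbered 16 within 2000 bp, and 25 to 38 with single replicate lists.

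No analysis paired between groups was possible because there was 1 group. Flanking windows were compared with near intergenic peaks as separate windows, without matching each to its own peak. Depth is unknown for every result, and the 388 far intergenic peaks limit the comparisons with them.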
